A study of Arabidopsis thaliana with 20 samples.

Results

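The genes described here are 40 Arabidopsis thaliana genes whose array signal ranked lower in atpc1-1 than in WT while staying above 0 in every sample. Each of the 3439 rows of the array table was given its percentile in each column, so that a row at 90% was brighter than 90% of the rows of that sample. Of 692 rows annotated with 1 gene, 265 were above 0 in all 20 columns and outside the top 20% of at least 1 column. The 40 genes are those of the 265 with the largest fall of the median percentile in atpc1-1 against WT, after 12 genes named in the rule had been left out. Of those 12, AT5G17630 and PPDK would otherwise have been among the 40. The genes were chosen by their percentiles in atpc1-1 and WT themselves, so the differences between the genotypes are given as a description and were not tested as a finding.

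Total RNA was measured in 10 columns labelled atpc1-1, a mutant without the γ subunit of chloroplast ATP synthase, and in 10 columns labelled WT. All plants were of ecotype Columbia 0 and grew on MS medium, a mineral culture medium for plants. The labels used here give no age, tissue or further treatment, and the mutant is represented by 1 allele. Columns of adjoining number (1 and 2, 3 and 4, and so on) correlated best with each other in 10 of 10 columns of each genotype. For deviations from the genotype mean, the correlation with the partner was 0.025 to 0.58 in atpc1-1 and 0.35 to 0.87 in WT. The highest with any other column was -0.019 in atpc1-1 and 0.16 in WT, so the pairing is weakly marked in some atpc1-1 columns. The columns of a pair were averaged, and each genotype is counted as 5 replicates.

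The chloroplast ATP synthase is the thylakoid enzyme that uses the proton gradient built up by photosynthetic electron transport to make ATP. The γ subunit is the rotating shaft between the membrane part and the catalytic head, and it is encoded in the nucleus by ATPC1. Chloroplasts without the complex cannot make ATP in the light by this route, and the state of the chloroplast is known to influence the expression of nuclear genes. The comparison addresses which nuclear transcripts take a lower place in the RNA of such plants.

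Several features of the arrays bear on every value below. The only row that lists ATPC1 also lists ATPC2, and it stood at percentiles of 41.6 to 92.3 in atpc1-1 columns (median 70.0) and of 34.9 to 70.1 in WT columns (median 66.8), so it does not check the labels. Of 10 green tissue markers, 4 had a row of their own, with median percentiles of 94.1 to 99.8 in atpc1-1 and 85.5 to 99.9 in WT. None of 5 root, 5 seed and 4 flower markers had one. Median intensity on the deposited linear scale was 0.130 to 0.224 in atpc1-1 columns and 0.339 to 0.493 in WT columns, and 5.70% to 20.8% of rows stood at 0 in atpc1-1 columns against 3.63% to 4.36% in WT columns. WT replicate 5 (columns 9 and 10) stands apart from the other WT replicates in these genes, and results are given with and without it. In bulk RNA, fewer cells of a type and less RNA per cell cannot be told apart.

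As a group the 40 genes held middle ranks in atpc1-1 and high ranks in most of WT. Their median percentile was 42.2 to 57.4 in the 10 atpc1-1 columns and 58.2 to 77.0 in the 10 WT columns. WT columns 1 to 8 lay between 74.6 and 77.0, and the lowest WT values, 58.2 and 59.2, were those of columns 10 and 9. The other 225 of the 265 rows, among them 6 of the genes left out by name, had medians of 65.8 to 69.9 in atpc1-1 columns. The same 225 rows stood between 57.3 and 60.5 in WT columns 1 to 8, at 66.7 in column 9 and at 68.0 in column 10. Summed over the 40 genes, deposited intensity was 5.99 to 12.3 in atpc1-1 columns, 20.2 and 20.7 in the WT columns of replicate 5, and 48.9 to 61.1 in the other WT columns.

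**Figure D1:**
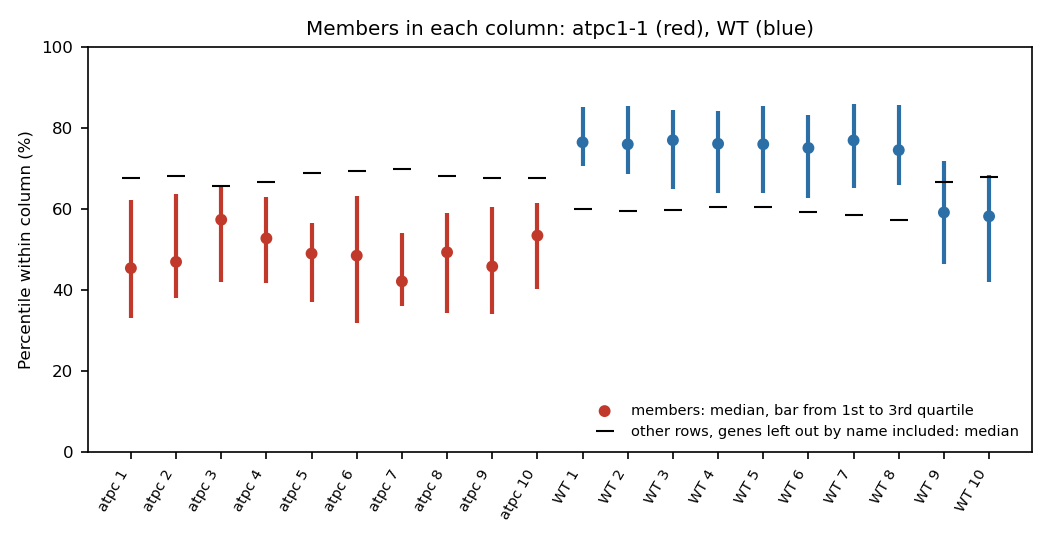
Percentile within each column (vertical axis, %) of the 40 genes in the 10 atpc1-1 columns (red) and the 10 WT columns (blue); dots are medians, bars run from the 1st to the 3rd quartile, and black dashes are medians of the other 225 of the 265 rows. The dots lie below the dashes in all atpc1-1 columns and in WT columns 9 and 10, and above them in WT columns 1 to 8.

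The fall of median percentile ranged from 12.2 to 56.5 points over the 40 genes, with a median of 20.4 points, and 22.8 points without WT replicate 5. In WT, 15 of the genes had a median at or above the 80th percentile, and their falls had a median of 33.4 points. The 19 genes between 60 and 80 in WT had a median fall of 19.2 points, and the 6 below 60 one of 19.4 points. On the deposited scale all 40 had a lower median intensity in atpc1-1, at 0.0373 to 0.288 times the WT median. That direction is common on this scale, since 88.0% of the other 225 rows were lower too. Their median ratio was 0.570 against 0.195 for the 40, a gap that the choice of the 40 by fall of rank largely fixes.

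**Figure D2:**
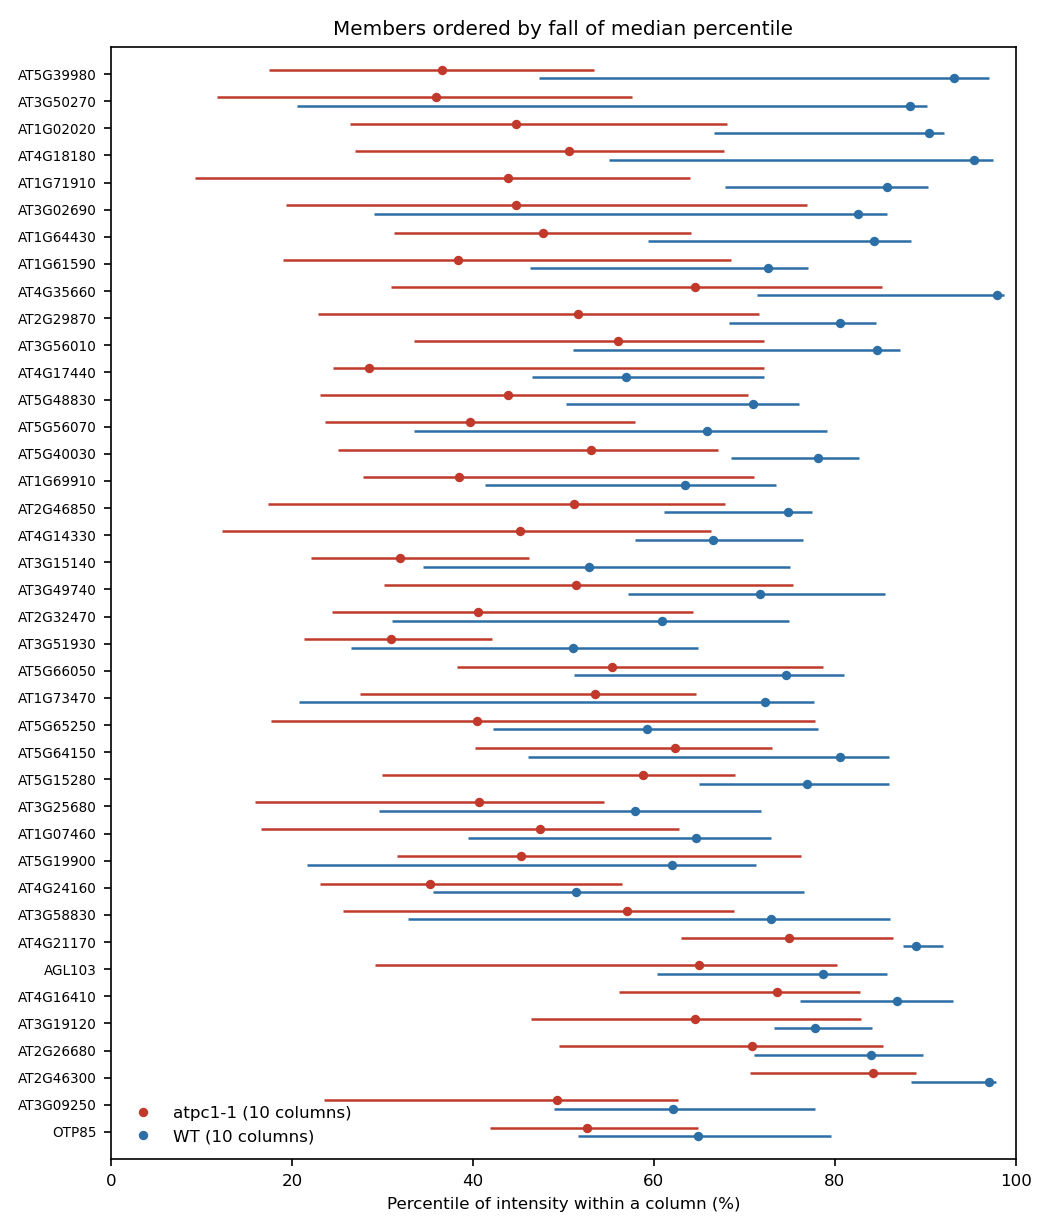
Percentile of each of the 40 genes (rows, ordered by fall of median percentile) in atpc1-1 (red) and WT (blue); the horizontal axis is the percentile within a column (%), dots are medians over 10 columns and lines run from the lowest to the highest column. The lines of the genotypes are separate for AT1G71910, AT5G40030 and AT4G21170 and meet or overlap for the other 37.

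The largest fall belonged to AT5G39980, which encodes a pentatricopeptide repeat (PPR) protein. PPR proteins are RNA-binding proteins encoded in the nucleus that process, edit, stabilise or help to translate transcripts of chloroplasts and mitochondria. AT5G39980 stood at percentiles of 17.4 to 53.4 in atpc1-1 (median 36.6) and of 47.3 to 97.0 in WT (median 93.1). Its 5 replicates, on the log2 scale after quantile normalisation, were at -2.95, -2.47, -2.92, -3.68 and -2.23 in atpc1-1 and at 2.37, 1.49, 1.29, 1.05 and -1.80 in WT. WT replicates 1 to 4 were thus far above every atpc1-1 replicate, and WT replicate 5 just above the highest of them. The mean was -2.85 ± 0.55 in atpc1-1 and 0.88 ± 1.58 in WT (SD, n = 5 each), a log2 difference of -3.73 (SE 0.65).

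AT3G49740 was at 30.2 to 75.4 in atpc1-1 (median 51.4) and 57.1 to 85.5 in WT (median 71.8), with 7 of 10 atpc1-1 columns below the lowest WT column. AT5G15280 was at 29.9 to 68.9 in atpc1-1 (median 58.7) and 64.9 to 85.9 in WT (median 76.9), with 8 of 10 atpc1-1 columns below every WT column. AT4G21170 had the most even WT values of the 40, with an SD of 1.83 percentile points over the 5 WT replicates. It was at 63.0 to 86.4 in atpc1-1 (median 74.9) and at 87.5 to 91.9 in WT (median 89.0), so that its columns did not overlap between genotypes. WT replicate 5 was no exception in this gene, at 87.9 against 87.6 to 91.7 in the other WT replicates.

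OTP85, a PPR protein named for organelle transcript processing and known to act in the editing of chloroplast RNA, was the last gene inside the limit of the rule. Its percentile was 41.9 to 64.9 in atpc1-1 (median 52.6) and 51.6 to 79.6 in WT (median 64.9), and 4 of 10 atpc1-1 columns lay below the lowest WT column. Its log2 replicates ran from -2.37 to -1.44 in atpc1-1 and from -1.66 to -0.42 in WT, so the genotypes overlapped. The atpc1-1 replicates of this gene were close together in percentile (SD 4.49 points, n = 5), as were those of AT5G39980 (SD 3.72 points). AT3G15140, an exonuclease that trims ribosomal RNA in chloroplasts, was at 22.1 to 46.1 in atpc1-1 (median 31.9) and 34.5 to 75.0 in WT (median 52.8). On the log2 scale its replicates ran from -4.47 to -2.58 in atpc1-1 and from -2.23 to -0.72 in WT, without overlap.

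**Figure D3:**
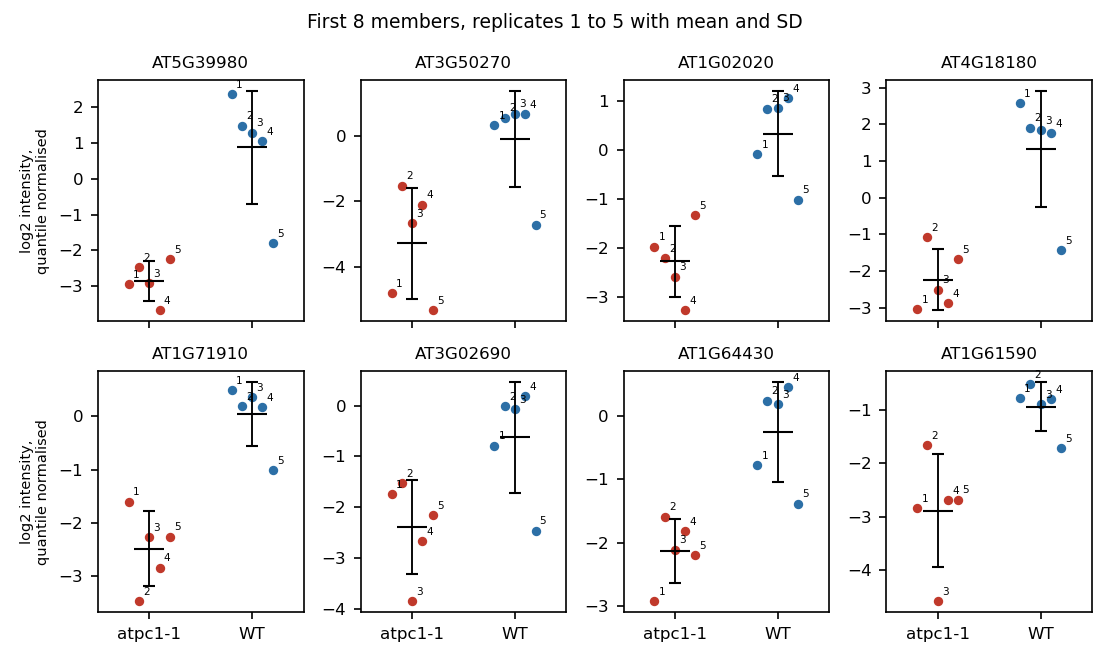
Log2 intensity after quantile normalisation (vertical axes, each with its own range) of the 8 genes with the largest fall, in atpc1-1 (red, left) and WT (blue, right); points are replicates, numbered 1 to 5, and bars give mean and SD. In all 8 genes WT replicate 5 is the lowest WT replicate, from -1.01 to -2.71.

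Protein kinases, which transfer phosphate to other proteins and act in signalling and are encoded by 4 of the genes described here. AT1G61590 was at percentiles of 19.0 to 68.5 in atpc1-1 (median 38.3) and 46.3 to 77.0 in WT (median 72.6). AT5G40030 was at 25.1 to 67.1 in atpc1-1 (median 53.0) and 68.5 to 82.7 in WT (median 78.1), without overlap between the genotypes. On the deposited scale AT5G40030 measured 0.0271 to 0.337 in atpc1-1 columns (median 0.164) and 0.574 to 1.25 in WT columns (median 0.958). AT1G69910 and AT2G46850 overlapped between genotypes. AT1G69910 ran from 27.9 to 71.0 in atpc1-1 (median 38.4) and from 41.3 to 73.5 in WT (median 63.4). AT2G46850 ran from 17.4 to 67.8 in atpc1-1 (median 51.2) and from 61.1 to 77.5 in WT (median 74.9), and 8 of its 10 atpc1-1 columns lay below the lowest WT column. The log2 differences of these kinase genes were -1.96 (SE 0.47) for AT1G61590, -1.78 (SE 0.42) for AT5G40030, -0.93 (SE 0.31) for AT1G69910 and -1.58 (SE 0.44) for AT2G46850. With a pseudocount they were -1.16 for AT1G61590, -1.20 for AT5G40030, -0.55 for AT1G69910 and -0.98 for AT2G46850. With cyclic loess they were -1.57 for AT1G61590, -1.42 for AT5G40030, -0.59 for AT1G69910 and -1.19 for AT2G46850. On the deposited scale without normalisation they were -3.13 for AT1G61590, -2.80 for AT5G40030, -2.10 for AT1G69910 and -2.67 for AT2G46850.

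AT4G18180, of the pectin lyase-like family of cell wall enzymes, was at 27.0 to 67.7 in atpc1-1 (median 50.6) and 55.0 to 97.4 in WT (median 95.3). Its log2 replicates were -3.03, -1.07, -2.51, -2.88 and -1.68 in atpc1-1 and 2.57, 1.91, 1.85, 1.76 and -1.43 in WT. WT replicates 1 to 4 of this gene were tightly grouped, and WT replicate 5 lay inside the atpc1-1 range. AT3G02690, of the EamA family of membrane transporters, was at 19.3 to 76.9 in atpc1-1 (median 44.8) and 29.0 to 85.8 in WT (median 82.6). Only 1 atpc1-1 column of AT3G02690 lay below the lowest WT column, which belonged to WT replicate 5. AT2G29870, of the aquaporin-like family of membrane channels, was at 22.9 to 71.6 in atpc1-1 (median 51.6) and 68.3 to 84.6 in WT (median 80.5), with 7 of 10 atpc1-1 columns below every WT column.

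AT3G50270, of the HXXXD family of acyltransferases, had the second largest fall, with percentiles of 11.7 to 57.6 in atpc1-1 (median 36.0) and 20.6 to 90.2 in WT (median 88.2). Its WT replicates were the most widely spread of the 40 (SD 26.5 percentile points, n = 5), with replicate 5 at 29.2 and replicates 1 to 4 at 86.6 to 89.4. AT1G02020, of the nitroreductase family, was at 26.5 to 68.1 in atpc1-1 (median 44.8) and 66.6 to 92.1 in WT (median 90.4), with 8 of 10 atpc1-1 columns below the lowest WT column. Both genes stood near the top of the WT columns of replicates 1 to 4 and in the middle of the atpc1-1 columns. AT4G24160, a lysophosphatidic acid acyltransferase, was at 23.1 to 56.5 in atpc1-1 (median 35.2) and 35.5 to 76.6 in WT (median 51.4). AT3G58830, a plastid phosphatase in the synthesis of phosphatidylglycerol, the phospholipid of thylakoids, was at 25.6 to 68.8 in atpc1-1 (median 57.0) and 32.8 to 86.1 in WT (median 72.9). The percentile columns of the genotypes overlapped widely in both lipid genes, with 5 and 2 of 10 atpc1-1 columns below the lowest WT column. On the log2 scale the replicates of AT4G24160 ran from -3.59 to -2.43 in atpc1-1 and from -2.27 to -0.74 in WT, without overlap. Those of AT3G58830 ran from -2.86 to -1.41 in atpc1-1 and from -1.59 to 0.24 in WT, and overlapped.

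AT4G14330 encodes a kinesin motor protein of the phragmoplast, the structure that builds the new wall in plant cell division. It was at 12.3 to 66.3 in atpc1-1 (median 45.2) and 57.9 to 76.4 in WT (median 66.5), with 9 of 10 atpc1-1 columns below the lowest WT column. One atpc1-1 replicate, number 5, was far down at -5.53 on the log2 scale, where the others were at -3.17 to -1.77 and WT at -1.44 to -0.73. AGL103, a MADS-box transcription factor of the AGAMOUS-like family, was at 29.2 to 80.2 in atpc1-1 (median 65.0) and 60.3 to 85.8 in WT (median 78.7). WT replicate 5 was the highest WT replicate of AGL103, at 0.18 on the log2 scale, and the fall of 13.7 points was 11.2 points without it.

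For the remaining genes no role is given here. AT1G71910 was at 9.25 to 64.0 in atpc1-1 (median 43.9) and 67.8 to 90.3 in WT (median 85.7), the largest fall, 41.8 points, of the 3 genes whose columns did not overlap. AT4G35660 was at 31.0 to 85.2 in atpc1-1 (median 64.5) and 71.4 to 98.6 in WT (median 97.9), the highest WT median of the 40. Its median intensity in atpc1-1 was 0.0373 times that in WT, the lowest ratio of the 40. AT4G35660 also had the widest spread among atpc1-1 replicates (SD 17.1 percentile points, n = 5), with replicate 2 at 85.0 and the others at 38.9 to 67.5.

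AT1G64430 was at 31.3 to 64.1 in atpc1-1 (median 47.7) and 59.3 to 88.5 in WT (median 84.3), with 9 of 10 atpc1-1 columns below every WT column. AT3G56010 was at 33.4 to 72.2 in atpc1-1 (median 56.0) and 51.1 to 87.2 in WT (median 84.6). AT4G17440 was at 24.5 to 72.1 in atpc1-1 (median 28.5) and 46.5 to 72.2 in WT (median 56.9). The atpc1-1 median of AT4G17440 was the lowest of the 40, although its highest atpc1-1 column came close to the top of the WT range. AT5G48830 was at 23.1 to 70.3 in atpc1-1 (median 43.8) and 50.3 to 76.0 in WT (median 70.9). AT5G56070 was at 23.7 to 57.9 in atpc1-1 (median 39.7) and 33.5 to 79.2 in WT (median 65.8). In AT3G56010 and AT5G56070 only 2 of 10 atpc1-1 columns lay below the lowest WT column, against 8 in AT4G17440 and 6 in AT5G48830.

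The other 14 genes were AT2G32470, AT3G51930, AT5G66050, AT1G73470, AT5G65250, AT5G64150, AT3G25680, AT1G07460, AT5G19900, AT4G16410, AT3G19120, AT2G26680, AT2G46300 and AT3G09250. Their falls were 12.8 to 20.4 points, from medians of 31.0 to 84.2 in atpc1-1 and 51.0 to 97.0 in WT. AT2G46300 stayed among the brighter rows in both genotypes, at 70.7 to 89.0 in atpc1-1 and 88.5 to 97.8 in WT. Its small fall of 12.8 points went with a log2 difference of -2.27 (SE 0.41), and of -1.32 with median centring. In AT1G73470 and AT5G19900 no atpc1-1 column lay below the lowest WT column, which belonged to WT replicate 5 in both.

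WT replicate 5 took an intermediate place in these genes. It was the lowest of the 5 WT replicates in 31 of the 40 genes and in 29 (12.9%) of the other 225 rows. It lay below the median of WT replicates 1 to 4 in 36 of the 40, the exceptions being AT1G07460, AT4G24160, AGL103 and AT2G26680, and it lay below the atpc1-1 median in 11. In 23 of the 40 it was nearer to the atpc1-1 median than to the median of WT replicates 1 to 4. These counts against medians were made for the 40 genes alone. WT replicate 5 lay within the range of the atpc1-1 replicates in 21 of the 40 (52.5%) and in 125 (55.6%) of the other 225 rows. It lay above that range in 17 of the 40 and 49 of the 225, and below it in 2 and 51. Among the 40 rows with the largest rise by the mirrored rule it was the lowest WT replicate in 2, and it lay within the atpc1-1 range in 20 and below that range in 20. What sets this replicate apart was not tested.

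**Figure D4:**
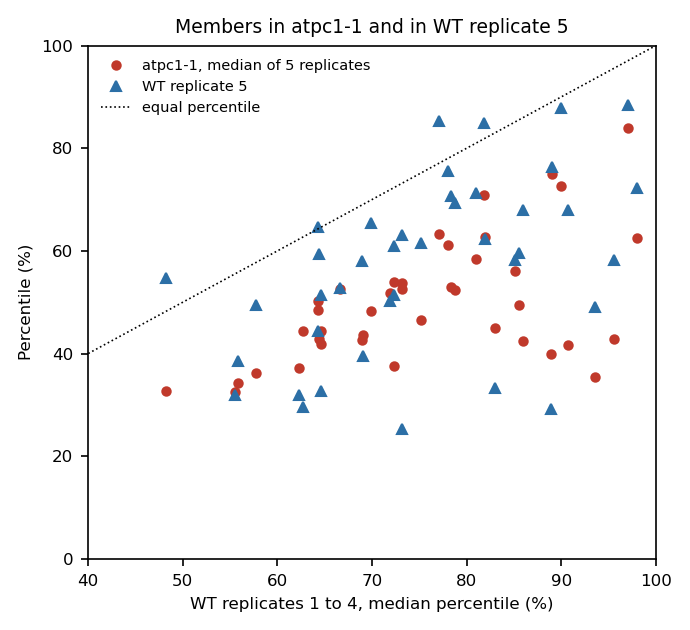
Percentile (vertical axis, %) of the 40 genes as the median of 5 atpc1-1 replicates (red circles) and in WT replicate 5 (blue triangles), against the median percentile of WT replicates 1 to 4 (horizontal axis, %); the dotted line marks equal percentiles. All circles and 36 of 40 triangles lie below the line.

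In most of the genes the columns of the genotypes overlapped. All 10 atpc1-1 columns lay below all 10 WT columns in 3 of the 40 genes, and this held for 2.95% of the 1761 rows above 0 in all columns. Against the 8 columns of WT replicates 1 to 4 alone the count was 15 of 40, and 7.72% of the same rows. On the log2 scale all 5 atpc1-1 replicates lay below all 5 WT replicates in 14 of 40 genes, and in 10.3% of the 3298 tested rows. Fitted with limma over all tested rows, 27 of the 40 were called lower at an adjusted p under 0.05, where 14.3% of the tested rows were called lower. Because the same contrast chose the genes, nothing is read from these counts. Without WT replicate 5, limma called lower 34 of the 40 and 540 of 3273 tested rows. Without WT replicates 1, 2, 3 and 4 in turn, it called 17, 18, 17 and 14 of the 40. Over all tested rows these fits called 262 of 3267, 259 of 3281, 258 of 3278 and 263 of 3271.

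Over the 40 genes the median log2 difference was -1.36, and over all tested rows it was -0.19. The differences ranged from -3.73 for AT5G39980 to -0.63 for AT5G19900. The difference of AT5G19900 was -0.31 with cyclic loess, -0.32 with a pseudocount, -0.35 with zeros raised to the lowest positive value and -1.83 without normalisation. The SD over the 5 replicates had a median of 10.8 percentile points in atpc1-1 and 10.04 in WT. Over WT replicates 1 to 4 alone the median SD in WT was 4.85 points. With all 5 WT replicates, the WT SD was below the atpc1-1 SD in 21 of the 40 genes and 109 of the other 225 rows. With WT replicate 5 left out and no atpc1-1 replicate left out, this held in 32 of the 40 and 126 of the 225. Among the atpc1-1 replicates, replicate 1 was the highest in 13 of the 40 genes, replicate 2 in 12 and replicate 5 in 8. In the other 225 rows replicate 1 was the highest in 50, replicate 2 in 30 and replicate 5 in 71. In replicate 1, 20.2% and 20.8% of all rows stood at 0, the most of any columns, and in replicate 2 5.70% and 6.48%, the fewest in atpc1-1. The 40 genes rank above all rows at 0, so the share of such rows in a column is a floor for their percentiles. With percentiles taken among rows above 0, the median change over the 40 was -27.9 points, against -20.4 over all rows. What part the rows at 0 have in the order of the replicates was not tested.

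The genes with the pattern most like that of the largest falls were mostly others of the 40. Likeness is Spearman's rho of percentiles over the 20 columns, among 321 rows with 1 gene that were above 0 in all columns, and all columns of a genotype share their genotype difference. AT4G18180 was most like AT4G35660 (rho 0.91) and AT5G40030 (rho 0.89). AT1G02020 was most like AT1G71910 (rho 0.86) and AT2G46850 (rho 0.85), and AT3G50270 was most like AT1G64430 (rho 0.85) and AT4G16410 (rho 0.82). AT5G39980 was most like AT1G61590 (rho 0.85) and XERICO (rho 0.83), while AT1G71910 was most like AT4G32060 (rho 0.92) and AT5G63290 (rho 0.89). XERICO, AT4G32060 and AT5G63290 are outside the 40 and bright in both genotypes, with differences of median percentile of -2.36, -4.86 and -5.79.

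Of the 40 genes, 3 were also listed by a row that names several genes, and none of these rows was lower in rank in atpc1-1. The row shared by AT4G17440 with 1 other gene was at a median of 47.0 in atpc1-1 and 38.0 in WT. The row listing AT3G25680 among 3 genes was at 30.6 in atpc1-1 and 22.4 in WT, and that listing AT5G56070 among 3 was at 96.1 in atpc1-1 and 93.6 in WT. For these genes the shared rows thus differed in direction from the row with 1 gene, and the sources used here do not say which of the listed genes they report. All 40 are annotated as protein coding. The closest in the RefSeq gene order of assembly TAIR10.1 were AT5G39980 and AT5G40030, with 4 protein-coding genes between them, and every other neighbouring pair of the 40 on a chromosome had at least 52 between them.

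At the limit of the rule, AT3G09250 and OTP85 were inside with falls of 12.8 and 12.2 points. AT5G02850 was the first outside, with a fall of 11.5 points, at a median of 31.2 in atpc1-1 and 42.7 in WT. AT2G03390 and AT4G17260 followed, each with 11.1 points.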

How the data were processed

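The array intensities were deposited by the authors as linear values, a column for each sample. The sources used here do not state how they were made (background correction, scaling, filters), and the number of arrays limits the precision. Percentiles were taken per column over all rows. For log2 differences, values of 0 were treated as missing, columns were quantile normalised (limma 3.58.1, R 4.3.3), columns of a pair averaged, and rows with at least 3 of 5 replicates per genotype fitted with lmFit and eBayes (two-sided, Benjamini-Hochberg). Fit and rule were tested on simulated data. The labels do not say that replicates came from separate plants, so SDs and p-values may cover technical spread alone. Genes were named from the platform's annotation and RefSeq.

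The genes and lists were chosen with earlier results of these data known. All 40 are named. Values are in full for the 16 largest falls, for AT3G49740, AT5G15280 and AT4G21170, and for genes whose role is given as background. The genes given a role, and those in full outside the 16 largest falls, were chosen after the members were known. The tables hold functional words for none of the 40, so the planned counts by class were void. Promoter motifs and sequences were not analysed here. Alternatives covered scaling, zeros, a pseudocount of 0.05, detection, array weights, pairing and each replicate left out.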

Additional observations from a re-analysis of the deposited data

Results flagged for a closer look

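For each of the 40 genes and each genotype, the replicate farthest from the others was examined on the log2 scale, by the share of the group's range that lies between it and its nearest neighbour. Of 80 groups, 11 had a share above the critical value for 5 samples. Chance alone flags about 1 in 20 groups, or 4 of 80, but these groups share replicates. In all 8 WT groups the far replicate was WT replicate 5, lowest each time. The shares were 0.900 for AT3G50270, 0.796 for AT4G18180, 0.789 for AT1G71910, 0.806 for AT4G35660, 0.718 for AT1G69910, 0.765 for AT2G32470, 0.735 for AT5G19900 and 0.849 for AT2G46300. In AT4G35660, WT replicate 5 was at -0.79 and the next WT replicate at 2.48. In AT2G46300 it was at 0.55 and the next at 2.38.

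In atpc1-1 the share was 0.820 for replicate 1 in AT3G56010, 0.736 for replicate 3 in AT3G15140 and 0.747 for replicate 1 in AT2G32470, all lowest. AT2G32470 was therefore marked in both genotypes, with atpc1-1 replicate 1 at -4.07 against -2.44 for its neighbour.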

How the results depend on the processing

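Under 20 alternative fits all 40 genes kept a negative log2 difference, which their choice largely fixes. Of 800 such values, 728 moved by less than 1 SD between replicates and 72 by more, 34 of them without scaling and 31 with columns scaled to their mean. The median log2 difference of the 40 was -2.49 without scaling and -2.35 with columns scaled to their mean, where the median of all rows was -1.22 and -1.08, and it was -0.84 with a pseudocount. Leaving out single replicates gave -1.52 to -1.27. The limma count of genes called lower among the 40 was 17 with cyclic loess, 15 with each column's zeros raised to its lowest positive value, and 14 to 34 with single replicates left out. Of 3298 tested rows, limma called 471 lower, against 1896 on the deposited scale, 1666 with mean scaling and 293 with cyclic loess. It called 338 of 3439 rows with zeros raised and 827 of 3086 with all 10 columns as replicates. Among the 1761 rows above 0 in all columns it called 311. With single replicates left out it called 258 to 540 of 3195 to 3281 rows (262, 259, 258 and 263 without WT replicates 1 to 4).

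Membership depended most on detection: with rows above 0 in only 5 of the 10 columns of each genotype allowed, 10 of the 40 were chosen again, because genes with values at 0 then took the other places. Under the other settings of the rule 34 to 40 were chosen again, the lowest count with the log2 difference in place of the percentile. The median change of percentile was -27.9 points when percentiles were taken among rows above 0, and -22.8 to -19.5 with single replicates left out.

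Same-numbered replicates of atpc1-1 and WT share only a number: their deviations correlated at 0.0297 to 0.354, over 0.1 in 3 of 5, and 2 of 5 correlated best with their own number. With the replicate block 24 of the 40 and 415 rows in all were called lower by limma, and the median log2 difference of the 40 was -1.36. The median of these genes in atpc1-1, 0.152 on the deposited scale, lies within the range of the medians of all rows in the atpc1-1 columns, 0.130 to 0.224.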
